A study of Rattus norvegicus with 47 samples.

Results

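Glutathione S-transferases join the tripeptide glutathione to reactive, electron-poor compounds so that the product can be exported and cleared. The genes described here are 10 members of this family in rat kidney, taken by symbol from the gene count table: Gstp1, Gstm1, Gstm2, Gstt1, Gstt2, Gsta4, Gsto1, Gstk1, Gstz1 and Mgst1. They are 10 of 22525 genes with counts, and all 10 passed the filter on low counts that left 15868 genes for testing. Kidney RNA was sequenced 12 months after rats, assigned at random, received pellets 1 mm in diameter and 2 mm long. The metals were tungsten (W, 8 libraries), cobalt (Co, also 8), aluminium (Al, 8 as well), lead (Pb, with 7), depleted uranium (written DU, 8) and, as control, tantalum (Ta, 8). Ta is described as inert, so the controls carried an implant too. Strain, sex, age at surgery and the site and number of pellets are not given in the sources used here, and no library from a rat without a pellet was used. Each library has its own animal number in the labels, so the spread between libraries is taken as spread between rats. These numbers run in blocks by metal, so whatever a block shares cannot be told apart from its metal.

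Several classes make up the family. The cytosolic alpha, mu, pi, theta, omega and zeta classes, the kappa class of mitochondria and peroxisomes, and the membrane-bound microsomal enzymes differ in substrates and in place. In the kidney, proximal tubule cells are rich in alpha-class enzymes, and the gamma-glutamyl transpeptidase on their brush border starts the trimming of conjugates to mercapturates. Many family members are known targets of NRF2, a transcription factor that binds antioxidant response elements when cells meet electrophiles or some metals.

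Total gene counts were 21604755 to 35775818 per library, and the lowest count of any of the 10 genes was 404 (Gstm1 in a W library), so counting error was small beside the spread between rats. Levels are given as CPM, the usual depth-scaled count with the library total adjusted by edgeR's TMM factor, and fold changes as log2 of the metal over Ta with their standard error (SE). The test was edgeR's quasi-likelihood F test on all 47 libraries, two-sided, with Benjamini-Hochberg adjustment over all tested genes and a threshold of 0.05, and every adjusted p below is from it. Genes with a count numbered 14981 to 16604 in Ta, 14878 to 16300 in W and 14538 to 16257 in Co libraries. They numbered 16515 to 17344 in Al, 16219 to 17050 in Pb and 17087 to 18015 in DU libraries. The cause of this difference was not tested. All 14 markers of proximal tubule segments S1 and S2 had counts in every library, in a tissue labelled kidney. DU replicates 5 and 6 stood apart: mitochondrially encoded genes took 14.3% and 11.8% of their counts, against 18.3% to 24.0% in the other DU libraries and 17.2% to 25.1% in Ta libraries. For several genes the DU value is also given without these 2 libraries.

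Promoter stretches of 3 members are shown because they hold letters of elements bound by NRF2 or by AP-1, a related factor, and because these genes behaved differently: Gstp1 and Mgst1 were higher in Pb kidneys and Gstz1 was not. These genes were picked with their values known, so they cannot show whether motif and level go together. Gsto1, also with AP-1 letters, was higher in Pb too, as were Gsta4 and Gstk1 with neither element in their windows. The stretches are taken from the RefSeq table of rat promoters, build GRCr8, which covers 250 bases before to 50 bases after the start of a gene and had windows for 8 of the 10 members. Capitals mark TGACTCAGC in Gstp1 on the plus strand of the gene, starting 61 bases before the start (chr1:210769706-210769825, minus strand of the genome). In Mgst1 they mark TGATTCA, starting 140 bases before the start (chr4:172760730-172760849, plus strand). In Gstz1 they mark GCCCCGTCA, the reverse strand of an antioxidant response element core, starting 231 bases before the start (chr6:112525356-112525475, plus strand).
Gstp1: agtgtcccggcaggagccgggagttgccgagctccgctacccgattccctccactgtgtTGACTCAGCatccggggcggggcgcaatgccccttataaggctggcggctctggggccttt
Mgst1: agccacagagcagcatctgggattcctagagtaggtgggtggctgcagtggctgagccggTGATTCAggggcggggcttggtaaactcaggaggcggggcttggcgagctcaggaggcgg
Gstz1: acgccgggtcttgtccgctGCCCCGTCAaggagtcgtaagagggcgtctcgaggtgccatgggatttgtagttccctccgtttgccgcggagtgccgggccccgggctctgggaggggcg

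Motifs were searched on both strands of the whole windows. The antioxidant response element core TGACNNNGC was in 2 of the 8 windows, Gstp1 and Gstz1, and in 12.1% of all 33469 windows in the table. The AP-1 letters TGANTCA were in 3 windows, Gstp1, Gsto1 and Mgst1, against 7.33% of all windows, and in Gstp1 they overlap the antioxidant core. The metal response element core, TGCACNC or TGCGCNC, was in 4 windows (Gstp1, Gsta4, Gstk1 and Mgst1), against 24.2% of all. The GC box GGGCGG was in 6 windows and 33.1% of all, the TATA box TATAAA only in that of Gstm1 among the 8 and in 14.2% of all, and CCAAT in 4 windows and 37.5% of all. These matches describe letters and were not tested for binding.

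In Pb kidneys 7 of the 10 genes rose against Ta and none fell, where 24.5% of all tested genes rose and 53.7% changed in either direction. The 7 were the pi-class Gstp1, the theta-class Gstt1 and Gstt2, the alpha-class Gsta4, the omega-class Gsto1, the kappa-class Gstk1 and the microsomal Mgst1. In Co kidneys these same 7 genes were called, all higher, against 13.6% of all tested genes higher and 25.8% in either direction. Al kidneys gave 3 calls, all higher (Gstp1, Gstt2 and Gstk1), against 12.8% higher and 25.2% in either direction. W kidneys gave no call among the 10, where 1.78% of all genes were called. DESeq2 also called none of the 10, where it called 5.83% of all genes. An unadjusted p under 0.05 was found in W for 5 of the 10, against 21.7% of all tested genes. Without DU replicates 5 and 6 in the shared fit, 4 members were called higher in W (Gstt2, Gsta4, Gstk1 and Mgst1), where 7.03% of all genes were called. In DU kidneys only the zeta-class Gstz1 was called among the 10, lower, against 7.39% of all genes lower and 15.3% in either direction. The median log2 fold change of the 10 genes was 0.28 in W (all tested genes -0.03), 0.52 in Co (-0.07), 0.29 in Al (-0.04), 0.71 in Pb (-0.07) and 0.04 in DU (-0.01). The 5 comparisons share the 8 Ta libraries, so their values are not independent of each other.

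**Figure D1:**
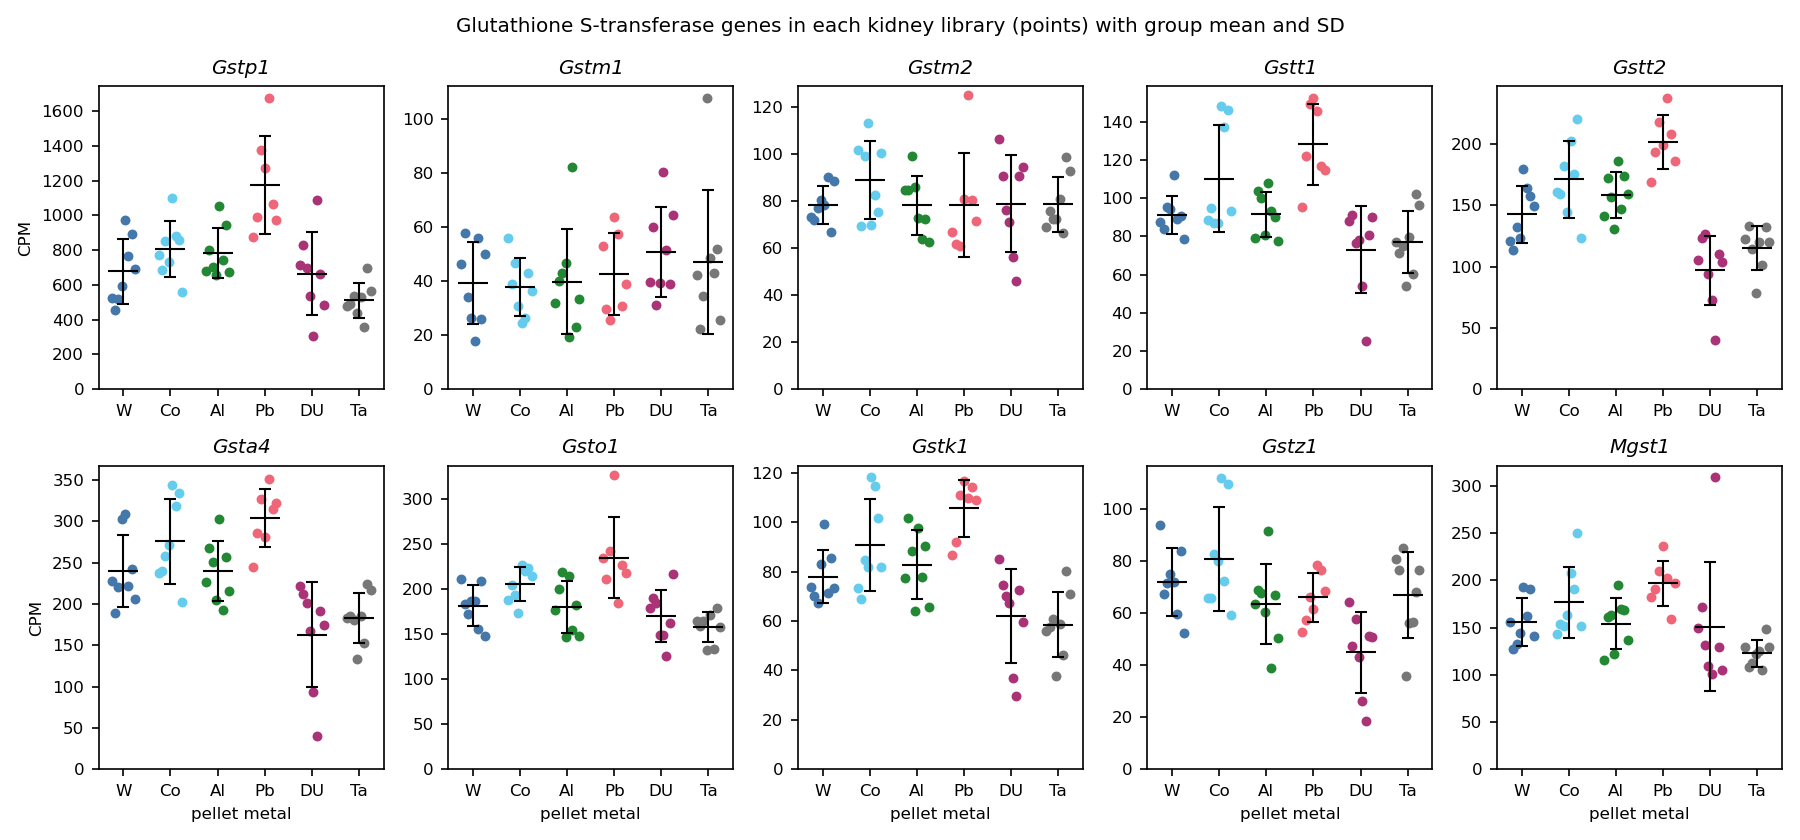
Each panel plots CPM of 1 gene (vertical axis, from 0) by pellet metal, with a point for each library and a black bar and whiskers for the group mean and SD. For Gstp1 the Pb libraries lie between 877 and 1676 CPM, all above the Ta libraries at 360 to 696 CPM, while the groups of Gstm1 and Gstm2 overlap.

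Gstp1 is the pi-class enzyme, known in the rat as a marker of altered liver cell foci and in kidney mostly from distal parts of the nephron. It had 877, 1066 and 1676 CPM (lowest, median and highest) in Pb kidneys, against 360, 508 and 696 CPM in Ta kidneys. No Pb library overlapped Ta, and the log2 fold change of 1.20 ± 0.18 (adjusted p = 3.6e-07) was the highest of any of the 10 genes in any metal. Co kidneys had 561, 814 and 1101 CPM, and 6 of 8 lay above every Ta library (log2 fold change 0.66 ± 0.18, adjusted p = 0.0057). Al kidneys had 655, 724 and 1057 CPM, with 5 of 8 above every Ta library (0.61 ± 0.18, adjusted p = 0.0087). W kidneys, at 455, 644 and 976 CPM, overlapped Ta, and their log2 fold change of 0.41 ± 0.18 did not pass (adjusted p = 0.17). DU kidneys had 305, 680 and 1090 CPM, with a log2 fold change of 0.38 ± 0.18 (adjusted p = 0.14). Both ends of that DU range are the libraries that stood apart, replicate 5 at 305 CPM and replicate 6 at 1090 CPM. Without DU replicate 5 the value was 0.52 (adjusted p = 0.030), and without both it was 0.39 (adjusted p = 0.12). RefSeq places Gstp1 beside its paralog Gstp3, and it is known to have processed copies, so reads that map to several places could be split in a way not given in the sources used here.

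Gsta4, Gstt2 and Gstt1 all rose in Pb and in Co. Gsta4, the alpha-class enzyme known for its activity toward the lipid peroxidation product hydroxynonenal, had 245, 315 and 352 CPM in Pb kidneys, against 133, 184 and 225 CPM in Ta kidneys. The 2 groups did not overlap (log2 fold change 0.74 ± 0.19, adjusted p = 0.00082). Co kidneys had 202, 265 and 345 CPM of Gsta4, above every Ta library in 7 of 8 (0.59 ± 0.18, adjusted p = 0.013). In W and Al kidneys the log2 fold change of Gsta4 was 0.39 ± 0.18 in each, with all 8 libraries above the Ta median, and neither passed (adjusted p = 0.20 and 0.10). DU kidneys had 40.0, 183 and 222 CPM of Gsta4, where the lowest value is DU replicate 6 and 93.1 CPM is DU replicate 5. The log2 fold change was -0.17 ± 0.18 (adjusted p = 0.59), and without both libraries it was 0.12 (adjusted p = 0.61).

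Gstt2, a theta-class enzyme that acts on organic sulfates and peroxides, had 169, 199 and 237 CPM in Pb kidneys, against 78.4, 120 and 133 CPM in Ta kidneys. Here too the groups did not overlap (log2 fold change 0.80 ± 0.14, adjusted p = 7.4e-06). In Co kidneys it had 123.3, 167.9 and 219.9 CPM (0.57 ± 0.14, adjusted p = 0.0030), and in Al kidneys 130.7, 158.1 and 185.9 CPM (0.46 ± 0.14, adjusted p = 0.014). In each of these 2 metals 7 of 8 libraries lay above every Ta library. DU kidneys had 40.4, 104.3 and 126.2 CPM, none above every Ta library and 2 of 8 above the Ta median (-0.25 ± 0.14, adjusted p = 0.24). Without DU replicates 5 and 6 that value was -0.03 (adjusted p = 0.93).

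Gstt1, the theta-class enzyme known for small halogenated compounds, had 95.6, 122.3 and 152.4 CPM in Pb kidneys, against 53.98, 76.1 and 102.03 CPM in Ta kidneys. It passed in Pb (log2 fold change 0.74 ± 0.17, adjusted p = 0.00022) although 1 of 7 Pb libraries lay within the Ta range. Co kidneys had 86.9, 94.2 and 148 CPM (0.52 ± 0.16, adjusted p = 0.015), with 3 of 8 above every Ta library. RefSeq places Gstt1 between its paralogs Gstt4 and Gstt3, which is a further reason for caution about how reads were assigned.

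Gstk1, the kappa-class enzyme of mitochondria and peroxisomes, had 86.6, 110 and 117 CPM in Pb kidneys, against 37.6, 58.2 and 80.2 CPM in Ta kidneys. The groups did not overlap, and the log2 fold change of 0.85 ± 0.16 (adjusted p = 1.1e-05) ranked behind Gstp1 among the 10. Co kidneys had 68.9, 83.4 and 118 CPM (0.63 ± 0.15, adjusted p = 0.0024) and Al kidneys 63.8, 82.9 and 101.8 CPM (0.50 ± 0.15, adjusted p = 0.013). All 8 libraries of Co, of Al and of W lay above the Ta median. In W the log2 fold change was 0.41 ± 0.15 (adjusted p = 0.11), with a 95% interval of 0.11 to 0.72.

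Mgst1, a membrane enzyme of the endoplasmic reticulum and mitochondria that also reduces lipid peroxides, had 159, 197 and 236 CPM in Pb kidneys, against 105.2, 123.9 and 148.2 CPM in Ta kidneys. The groups did not overlap (log2 fold change 0.68 ± 0.16, adjusted p = 0.00028). Co kidneys had 142.7, 158.6 and 250.7 CPM, with 7 of 8 above every Ta library (0.53 ± 0.15, adjusted p = 0.0099). DU kidneys had 100.9, 130.2 and 310.1 CPM, with DU replicate 5 lowest and DU replicate 6 highest, as for Gstp1. The DU value of 0.30 ± 0.15 did not pass (adjusted p = 0.19), and it was 0.15 without both libraries.

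Gsto1, the omega-class enzyme that reduces dehydroascorbate and methylated arsenic, had the smallest log2 fold change of the 7 genes in Pb and in Co. It had 185, 226 and 326 CPM in Pb kidneys, against 131.7, 161.3 and 178.3 CPM in Ta kidneys, with no overlap (log2 fold change 0.58 ± 0.11, adjusted p = 1.4e-05). Co kidneys had 173, 209 and 226 CPM, with 7 of 8 above every Ta library (0.38 ± 0.10, adjusted p = 0.0064). Al kidneys, at 147, 179 and 218 CPM, overlapped Ta (0.19 ± 0.10, adjusted p = 0.17). In all, every Pb library lay above every Ta library for 6 members (Gstp1, Gstt2, Gsta4, Gsto1, Gstk1 and Mgst1), against 13.0% of all tested genes. No member separated from Ta in that way in W (0.366% of all genes), Co (2.07%), Al (3.49%) or DU (2.02%).

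**Figure D2:**
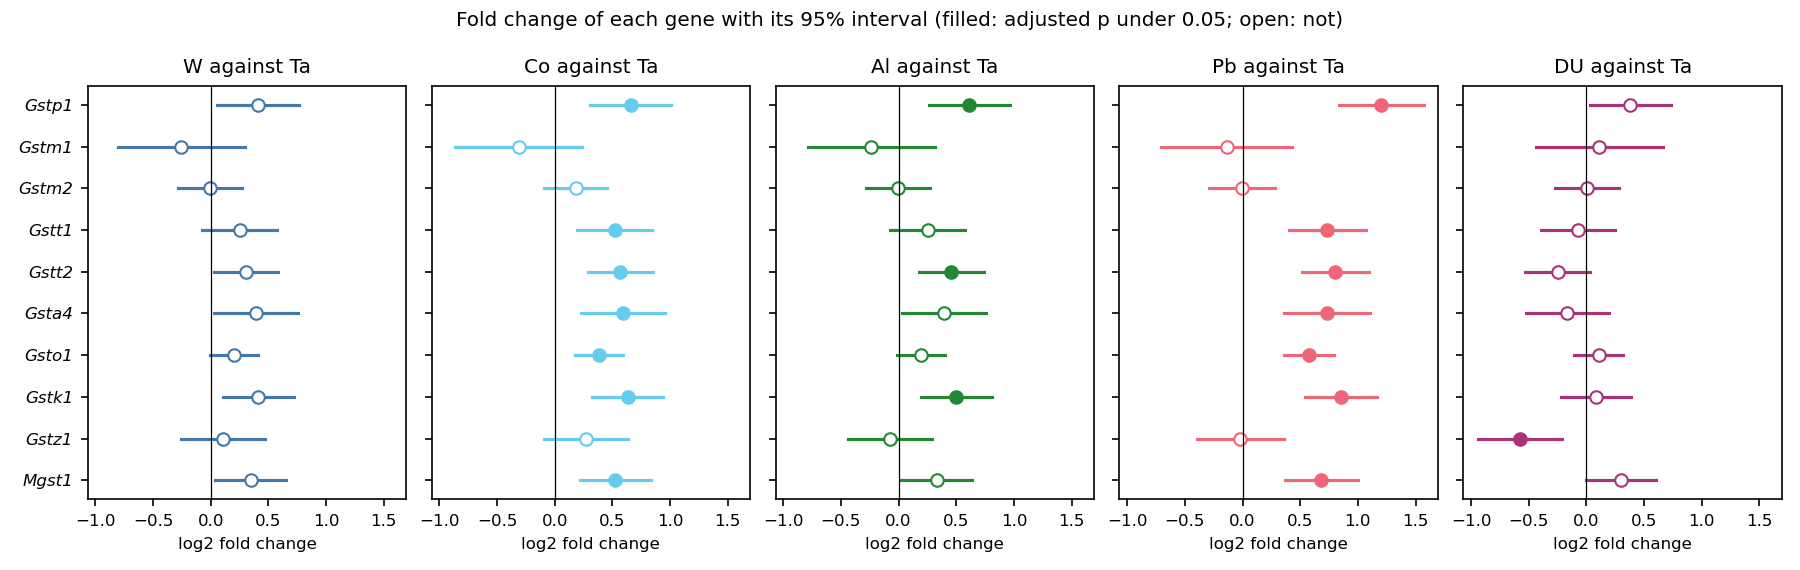
Points give the log2 fold change of each gene against Ta in 1 panel per metal, lines give its 95% interval, and filled points passed an adjusted p of 0.05. Gstp1 in Pb lies furthest right at 1.20, and Gstz1 in DU is the only filled point left of 0.

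The mu-class genes Gstm1 and Gstm2, neighbours on chromosome 2 in RefSeq that encode cytosolic enzymes with broad substrates, passed in no metal. Gstm2 had 61.0, 71.7 and 125.005 CPM in Pb kidneys, against 66.5, 74.1 and 98.9 CPM in Ta kidneys. These ranges overlapped, and the 95% interval of the log2 fold change ran from -0.29 to 0.28 (adjusted p = 0.98). In Co, 4 of 8 libraries lay above every Ta library for Gstm2, at 69.6, 90.9 and 113 CPM, with an interval of -0.10 to 0.46 (adjusted p = 0.34). Gstm1 had the widest range of the 10 genes among Ta rats, relative to its lowest value. It had 25.6, 39.0 and 63.6 CPM in Pb kidneys, against 22.2, 42.7 and 108 CPM in Ta kidneys. Its interval in Pb, -0.71 to 0.43, leaves room for a change in either direction. The Ta value of 108 CPM is Ta replicate 4, and without that library the Gstm1 log2 fold change was 0.07 in W, 0.02 in Co, 0.08 in Al and 0.17 in Pb, where it was -0.26, -0.31, -0.24 and -0.14 with it. In DU it was 0.43 without that library and 0.11 with it, and Gstm1 was called in none of these fits. Ta replicate 4 also had the highest summed macrophage markers of the Ta libraries, 693 CPM against 123.9 to 356 CPM in the others. Its fibroblast and smooth muscle markers summed to 1140 CPM, against 425 to 757 CPM in the other Ta libraries. Its S3 proximal tubule markers summed to 2678 CPM, against 5609 to 9581 CPM in the others, and its thick ascending limb markers to 2930 CPM, against 5660.25 to 8674 CPM. The part of these cells in its Gstm1 level was not tested. The related genes of the mu cluster could share reads with Gstm1 and Gstm2, so a change limited to 1 of them could be masked.

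Gstz1 also acts as maleylacetoacetate isomerase in the breakdown of tyrosine, so its main known role is not conjugation. It had 18.5, 49.1 and 64.3 CPM in DU kidneys, against 36.0, 72.4 and 84.99 CPM in Ta kidneys. All 8 DU libraries lay below the Ta median, although the ranges overlapped (log2 fold change -0.58 ± 0.18, adjusted p = 0.024). The lowest DU values, 18.5 and 26.1 CPM, were replicates 6 and 5, and without both libraries the log2 fold change was -0.32 (adjusted p = 0.22). The call was also lost when any of Ta replicates 1, 2, 3 or 8 or DU replicates 4, 5 or 6 was left out, with adjusted p up to 0.084. In Pb kidneys Gstz1 had 52.9, 66.4 and 78.5 CPM, with a log2 fold change of -0.02 ± 0.19 (adjusted p = 0.94).

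**Figure D3:**
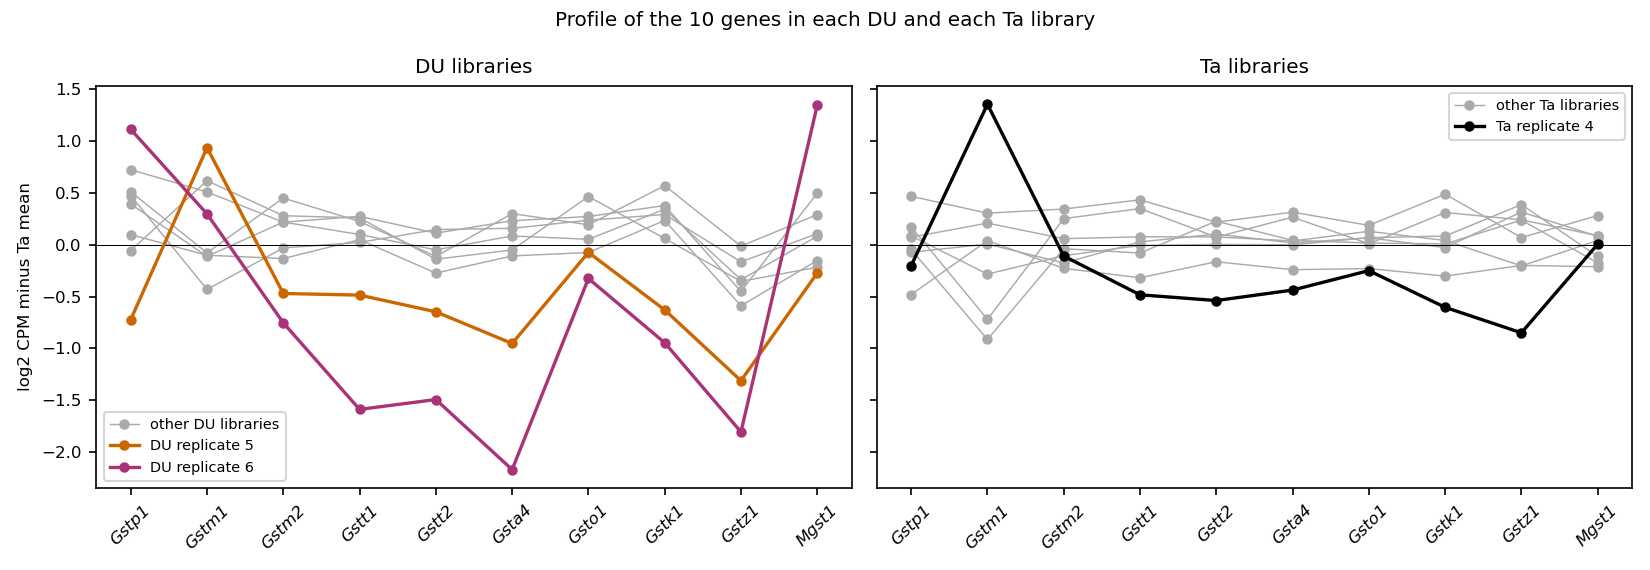
Lines connect the 10 genes within each library, with log2 CPM minus the mean of the Ta libraries on the vertical axis, for DU libraries on the left and Ta libraries on the right. DU replicate 6 runs lowest at Gsta4 and highest at Gstp1 and Mgst1, and Ta replicate 4 stands out at Gstm1.

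DU replicate 6 had low summed S1 and S2 proximal tubule markers, 1648 CPM against 10498 to 18104 CPM in the other DU libraries and 11096 to 16890 CPM in Ta libraries. Its summed macrophage markers were 1178 CPM, with 775 CPM in DU replicate 5, 188 to 467 CPM in the other DU libraries and 123.9 to 693 CPM in Ta libraries. DU replicate 6 had the lowest DU values of Gstm2, Gstt1, Gstt2, Gsta4, Gsto1, Gstk1 and Gstz1 and the highest of Gstp1 and Mgst1. In DU replicate 5 the S3 and thick ascending limb sums, 1797 and 1834 CPM, were also below every Ta library. Over all DU libraries, 4 of 9 macrophage markers and 1 of 9 endothelial markers rose against Ta. Of 6 thick ascending limb markers 1 fell, as did 1 of 8 principal cell markers, where 15.3% of all tested genes were called. None of 14 S1 and S2 markers passed, which does not show that they were unchanged. In bulk kidney RNA, fewer cells of a type and less RNA per cell cannot be told apart. With the mean levels of S1 and S2 and of collecting duct principal cell markers as covariates, Gstz1 in DU was -0.52 (adjusted p = 0.016), where 17.5% of all genes were called. These covariates hold no macrophage marker, and the part of macrophages in the Gstz1 value was not tested.

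Marker genes of other cells also moved in Pb kidneys, where 53.7% of all tested genes were called in either direction. Of 9 endothelial markers 8 fell, their sum being 65.5 to 138.3 CPM in Pb, against 301 to 401 CPM in Ta. All 7 podocyte markers fell, with sums of 46.7 to 98.4 CPM in Pb, against 183 to 423 CPM in Ta. Of 14 S1 and S2 markers 9 fell and 1 rose, while their sum, 14602 to 19332 CPM in Pb against 11096 to 16890 CPM in Ta, overlapped. Their mean log2 CPM, used as a covariate below, did not overlap, at 7.10 to 8.02 in Pb against 8.58 to 8.95 in Ta. In Al that mean was 7.38 to 8.47, also below every Ta library. Of 8 fibroblast and smooth muscle markers 7 fell, with sums of 161 to 304 CPM in Pb, against 425 to 1140 CPM in Ta. All 4 tested markers of the distal convoluted tubule fell too, and the 1 not tested was at 0 in every Pb and Ta library. Of 5 intercalated cell markers 3 rose and none fell, with sums of 804 to 1235 CPM in Pb, against 467 to 729 CPM in Ta. Of 8 principal cell markers 3 rose and 2 fell, and of 8 S3 markers 2 rose and 2 fell. Of 6 thick ascending limb markers 1 rose and 3 fell, of 6 urothelium markers 1 rose, and of 9 macrophage markers 3 fell. In Co, 7 of 8 fibroblast and smooth muscle markers fell (141.6 to 534 CPM), with 2 of 9 endothelial and 2 of 7 podocyte markers. Of 5 intercalated cell markers 2 rose in Co, with 1 of 14 S1 and S2 markers. Of 8 S3 markers 1 rose and 1 fell, and of 6 thick ascending limb markers 1 fell, where 25.8% of all tested genes were called in either direction. In Al, all 7 podocyte markers (52.2 to 270.9 CPM), 6 of 9 endothelial (80.7 to 327 CPM), 5 of 8 fibroblast and smooth muscle (169.7 to 524 CPM) and 4 of 14 S1 and S2 markers fell. In Al 1 S3 marker also fell, and 1 marker each of the intercalated cell, principal cell and thick ascending limb lists rose. All tested genes were called at 25.2% in Al, in either direction. No marker of the S1 and S2, endothelial, podocyte or fibroblast and smooth muscle lists was at 0 in any library. With the covariates of S1 and S2 and of principal cell markers, the same 7 members were called in Pb and the same 7 in Co, while none was called in Al. In that fit 40.5% of all genes were called in Pb, 16.4% in Co and 11% in Al. The Pb log2 fold change of Gstp1 in that fit was 0.74 (adjusted p = 0.00017), and that of Gstk1 0.60 (adjusted p = 0.00012). Since the mean of S1 and S2 markers in Pb and in Al does not overlap Ta, the metal and whatever sets this mean cannot be told apart. The part of the other cell types in these results was not tested.

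Another measure separated Pb, Co and DU libraries from Ta libraries, while W and Al libraries overlapped Ta. The balance of small and very large proteins, taken as average log2 CPM over 73 ribosomal protein genes less the average over 38 genes that encode very large proteins, was 2.86 to 4.25 in Pb kidneys, against 1.10 to 1.96 in Ta kidneys, with no overlap. W libraries had 1.58 to 2.40, Co libraries 1.99 to 2.84, Al libraries 1.92 to 3.23 and DU libraries 2.14 to 3.05. With this balance as a covariate, Gstt2 and Gsta4 were called in Pb (log2 fold change 0.95 and 1.02, adjusted p = 0.022 and 0.0497), and Gstt2 alone of the 10 in Co (0.64, adjusted p = 0.039). Gstp1 in Pb was 0.76 in that fit (adjusted p = 0.11), and Mgst1 in Pb turned to -0.14 (adjusted p = 0.74). The number of all tested genes called fell to 1070 of 15868 in Pb, against 8517 without the covariate. Since every Pb, Co and DU library lies above every Ta library in this balance, an effect of these 3 metals and of whatever sets the balance cannot be told apart here.

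**Figure D4:**
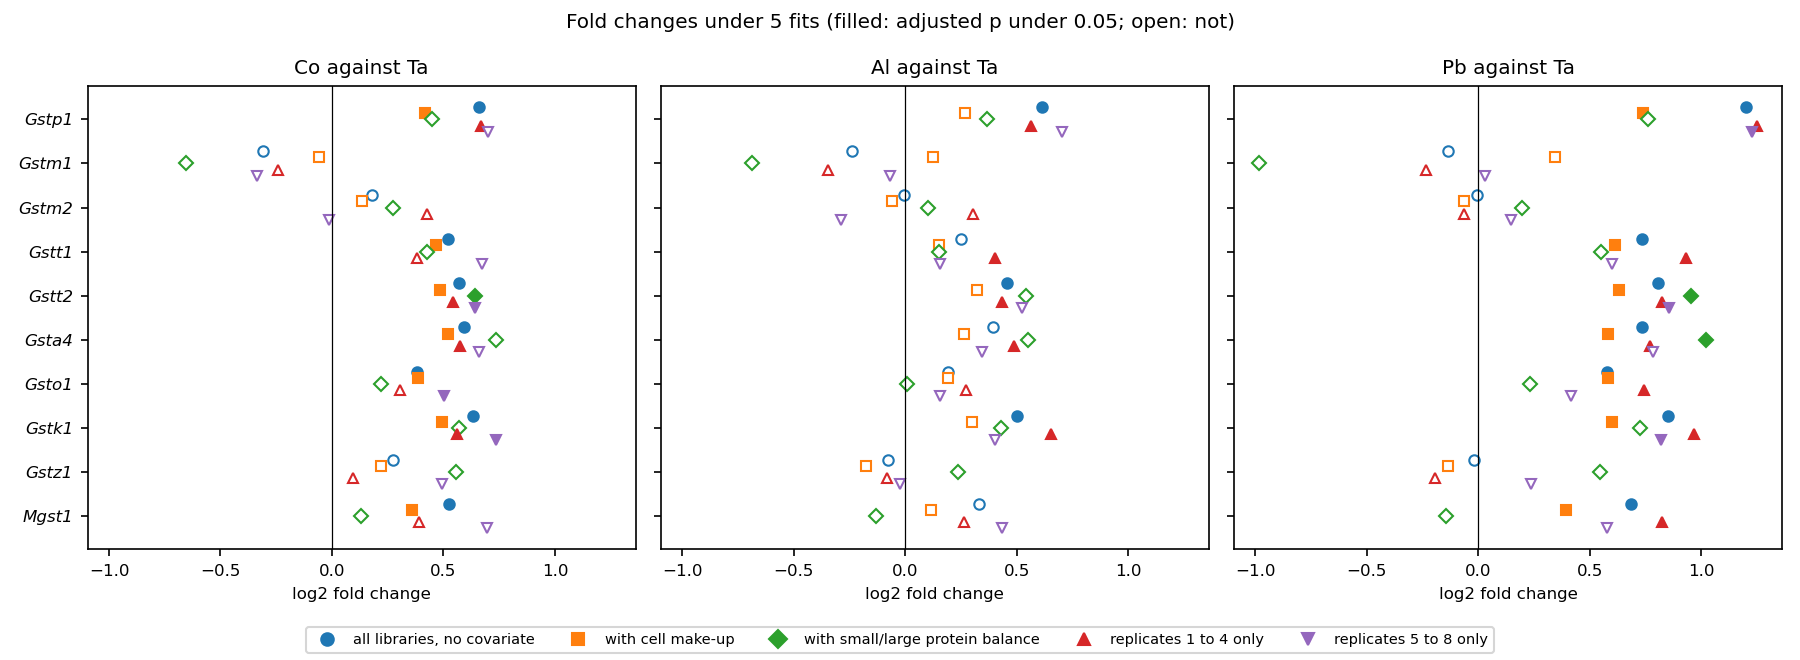
Markers give the log2 fold change of each gene against Ta in Co, Al and Pb under 5 fits, and filled markers passed an adjusted p of 0.05. Gstt2 is filled in Pb under all 5, whereas Mgst1 crosses 0 in Pb with the protein size balance as a covariate.

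Libraries with replicate numbers 1 to 4 and 5 to 8 were also fitted apart, because W, Co and Al libraries with higher numbers mostly had lower endothelial markers. Among numbers 1 to 4 all 7 members were called in Pb and 4 in Co (Gstp1, Gstt2, Gsta4 and Gstk1), where 51.6% and 5.36% of all genes were called. Among numbers 5 to 8, Gstp1, Gstt2 and Gstk1 were called in Pb and Gstt2, Gsto1 and Gstk1 in Co, where 28% and 22% of all genes were. Gstp1 in Pb was 1.25 among numbers 1 to 4 and 1.23 among numbers 5 to 8. For Al, 5 members were called among numbers 1 to 4, where 11% of all genes were, and none among numbers 5 to 8, where 13.9% of all genes were called. In DU, Gstp1 and Gstk1 were called higher among numbers 1 to 4, where 9.84% of all genes were called and neither of the libraries that stood apart is included.

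Among the 5 metals without regard to Ta, 7 members differed, against 53.2% of all tested genes. They were Gstp1, Gstt1, Gstt2, Gsta4, Gsto1, Gstk1 and Gstz1, with the smallest adjusted p for Gstt2 (3.1e-06). Of 100 combinations of member and metal pair, 28 were called, where the share of all tested genes called per pair was 0% to 49.6%. DU lay below Pb in 8 members, against 23.7% of all genes lower and 49.6% in either direction. The largest of these differences was that of Gstt2, at 96.9 ± 28.3 CPM in DU and 201 ± 22.2 CPM in Pb (mean ± SD, n = 8 and 7), with a log2 fold change of -1.06 ± 0.14 (adjusted p = 3.9e-07). DU lay below Co in 6 members (12.9% of all genes lower, 25.2% in either direction), below W in 3 (10.8%, with 20.7% in either direction) and below Al in 2 (7.0%, with 12.7% called in either direction). Without DU replicates 5 and 6, DU lay below Pb in 7 members (44.4% of all genes called in either direction), below Co in 5 (13.4%), below W in Gstt2 alone (10.9%) and below Al in Gstt2 alone (2.79%). Gstt2 then averaged 110.4 ± 12.2 CPM in DU (SD, n = 6), and its log2 fold change against Pb was -0.85 (adjusted p = 1.5e-06). Pb lay above W in 5 members (17.5% of all genes higher, 39.0% in either direction), above Al in 3 (7.98%, with 19.1%) and above Co in Gstp1 alone (11.3%, with 25.8%). For that gene the means were 1177 ± 282 CPM in Pb and 807 ± 160 CPM in Co (SD, n = 7 and 8), with a log2 fold change of 0.54 ± 0.18 (adjusted p = 0.022). Al against W, Co against W and Al against Co gave no call among the 10, with 2.68%, 0% and 0% of all genes called, and no member had an unadjusted p under 0.05 in any of these 3 pairs.

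By mean level, Pb ranked highest and Co next in the 7 genes called in Pb. DU ranked highest for Gstm1, and Co for Gstm2 and Gstz1, where no group differed from the one ranked next. Over all 10 genes, 50 pairs of neighbours in the order of the 6 groups were compared, and 1 was called, Gstp1 between Pb and Co. The other pairs of neighbours did not pass, which does not show that those groups are alike. Pb differed from both DU and Ta in the 7 genes other than the mu genes and Gstz1.

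The profiles of the members were compared over all 47 libraries by the mean absolute difference of log2 CPM after each gene was centred on its Ta mean. The closest pair of members was Gstt2 and Gsta4 (0.14), followed by Gstt1 and Gsta4 (0.15) and Gsta4 and Gstk1 (0.16). Gstm1 and Gstp1 were farthest apart (0.83). Among 8918 other genes with a mean of at least 10 CPM, the most like Gsta4 were Thnsl2 (0.099) and Pyroxd2 (0.12), where the median over these genes was 0.50. Gstt2 was also closest to Thnsl2 (0.14) and then to Qprt (0.14), an enzyme of NAD synthesis from tryptophan. Gstt1 was closest to Nit2 and Akr7a2 (0.14 each) and Gstk1 to Hsd17b10 and Fah (0.11 each). Fah encodes the last enzyme of tyrosine breakdown. Gsto1 was closest to Ube2k and Sdhb (0.12 each), Mgst1 to Mrps18a and the peroxiredoxin Prdx1 (0.14 each) and Gstp1 to Coa8 and Aimp2 (0.18 and 0.19). Gstz1 was closest to Sardh, the sarcosine dehydrogenase, and Osbpl1a (0.15 each). The nearest profiles to Gstm1, Bak1 and Erap1, were at 0.29 and 0.30, and those nearest to Gstm2, Mindy1 and Fbxw5, at 0.18 and 0.19. These values describe profiles that share libraries, depth and the same groups.

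Other genes of the pathway were read from lists. Of 17 other tested glutathione S-transferase family genes, none passed in W or Al, 2 rose in Co, 5 rose and 1 fell in Pb and 2 rose in DU. Counted in either direction, the shares in Pb and in Co lie below those of all tested genes, 53.7% and 25.8%. Counted as higher alone, the 5 of 17 in Pb stand beside 24.5% of all tested genes and the 2 of 17 in Co beside 13.6%. The median log2 fold change of the list was 0.25 in Pb and 0.31 in Co, against -0.07 for all tested genes in each. In Al, DU and W 25.2%, 15.3% and 1.78% of all tested genes were called. Mgst3, a microsomal family member, averaged 316 ± 66.2 CPM in Pb and 195 ± 23.3 CPM in Ta (SD, n = 7 and 8; log2 fold change 0.69 ± 0.16, adjusted p = 0.00041). The alpha-class Gsta2 averaged 1147 ± 119 CPM in Pb and 659 ± 149 CPM in Ta (0.80 ± 0.25, adjusted p = 0.0063), and it rose in Co as well (0.72 ± 0.24, adjusted p = 0.024). Gsta5 rose by 0.78 ± 0.25 in Pb and 0.65 ± 0.25 in Co on the log2 scale (adjusted p = 0.0085 and 0.046). In Co neither passed without Ta replicates 4 and 6 (adjusted p = 0.099 for Gsta2 and 0.15 for Gsta5). With the balance covariate no gene of the list was called higher in Pb, Mgst3 being at 0.45 (adjusted p = 0.35), Gsta2 at 1.07 (adjusted p = 0.13) and Gsta5 at 1.05 (adjusted p = 0.14). The gene that fell in Pb was the mu-class Gstm4 (-0.32 ± 0.12, adjusted p = 0.021), named after its value was seen. In DU, Mgst2 (2.22 ± 0.64) and Gsta6 (0.39 ± 0.14) rose (adjusted p = 0.014 and 0.043), and without DU replicates 5 and 6 neither passed (adjusted p = 0.11 and 0.079).

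Of 18 genes of glutathione synthesis, recycling and breakdown, none passed in W, 5 rose and 2 fell in Co, 2 rose and 1 fell in Al, 7 rose and 3 fell in Pb and 1 rose and 3 fell in DU. The 10 of 18 called in Pb and the 7 of 18 in Co stand beside 53.7% and 25.8% of all tested genes, and the 4 of 18 in DU beside 15.3%. The calls in Al stand beside 25.2%. Ggt1, the brush border gamma-glutamyl transpeptidase, averaged 4928 ± 570 CPM in Pb and 2246 ± 561 CPM in Ta (log2 fold change 1.13 ± 0.23, adjusted p = 4.3e-05). It rose in Co (0.79 ± 0.22, adjusted p = 0.0073) and Al (0.65 ± 0.22, adjusted p = 0.026) too. In Al it did not pass without Ta replicates 4 and 6 (0.51, adjusted p = 0.11). Nor did it pass in Al with the covariates of S1 and S2 and of principal cell markers (0.30, adjusted p = 0.28). Oplah, the oxoprolinase that returns glutamate to the cycle, rose by 0.79 ± 0.16 in Pb (adjusted p = 4.2e-05). With the balance covariate Ggt1 in Pb was 1.02 (adjusted p = 0.11) and Oplah 1.16 (adjusted p = 0.011). In DU both subunits of the rate-limiting enzyme of glutathione synthesis were lower, Gclc (-1.48 ± 0.35, adjusted p = 0.0028) and Gclm (-0.91 ± 0.23, adjusted p = 0.0050). These stayed past the threshold without DU replicates 5 and 6, at -1.09 (adjusted p = 0.011) and -0.67 (adjusted p = 0.042). Neither passed with the balance covariate, at -0.92 (adjusted p = 0.22) and -0.62 (adjusted p = 0.25).

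Of 15 genes of conjugate export and mercapturate steps, none passed in W, 3 rose and 2 fell in Co, 3 fell in Al, 7 rose and 5 fell in Pb and 1 fell in DU. All tested genes were called at 53.7% in Pb, 25.8% in Co, 25.2% in Al and 15.3% in DU. The exporter Abcc4 averaged 26.7 ± 4.44 CPM in Pb and 56.6 ± 8.49 CPM in Ta (-1.09 ± 0.18, adjusted p = 2.3e-06). Abcc1, which exports glutathione conjugates, was at -0.96 ± 0.19 in Pb (adjusted p = 3.9e-05), -0.58 ± 0.18 in Co and -0.72 ± 0.18 in Al. With the balance of small and very large proteins as a covariate, Abcc1 was -0.00 and Abcc4 -0.48 in Pb, and neither passed. Kyat1, a cysteine conjugate beta-lyase, rose by 0.44 ± 0.09 in Pb (adjusted p = 7.7e-05) and kept its call in that fit (0.55, adjusted p = 0.031). Acy3, an aminoacylase that deacetylates mercapturates, was the gene that fell in DU (-0.79 ± 0.24, adjusted p = 0.021), at -0.45 without DU replicates 5 and 6 (adjusted p = 0.11).

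Of 21 other NRF2 target and regulator genes, 1 rose in W, 3 rose in Co, 3 rose and 3 fell in Al, 6 rose and 5 fell in Pb and 2 rose and 1 fell in DU. The 11 of 21 called in Pb are near the 53.7% of all tested genes, and the 3 of 21 in Co are fewer than the 25.8% of all. The calls in Al, DU and W stand beside 25.2%, 15.3% and 1.78% of all tested genes. The gene that rose in W was Taldo1, the transaldolase of the pentose phosphate pathway (0.38 ± 0.09, adjusted p = 0.036), which rose in Pb as well (0.93 ± 0.10, adjusted p = 1.1e-10). With the balance covariate Taldo1 was 0.27 in W (adjusted p = 0.14) and 0.49 in Pb (adjusted p = 0.039). Bach1, a repressor that competes with NRF2, fell in Pb (-1.38 ± 0.20, adjusted p = 2.1e-07), and it was -0.22 with the balance covariate (adjusted p = 0.65). In DU the heme oxygenase gene Hmox1 averaged 24.8 ± 39.3 CPM, against 6.73 ± 4.88 CPM in Ta (1.88 ± 0.51, adjusted p = 0.0091). Without DU replicates 5 and 6 its value was 0.55 (adjusted p = 0.49).

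**Figure D5:**
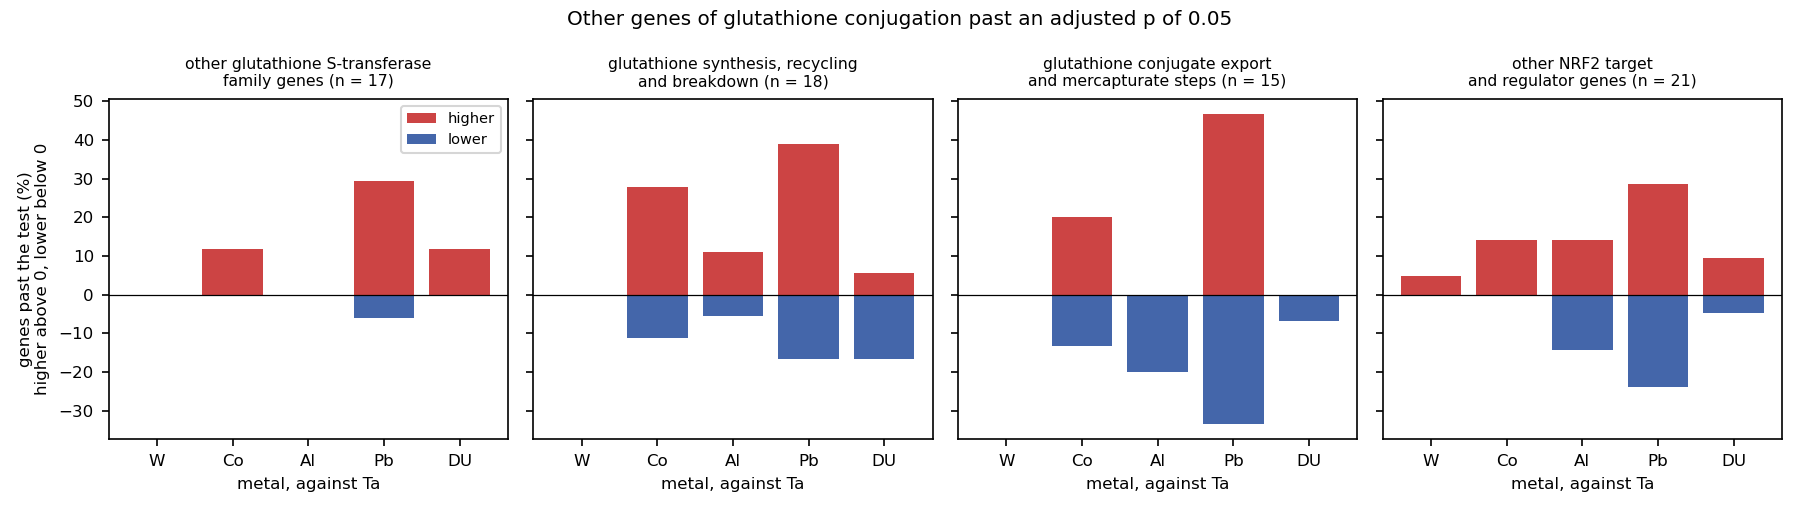
Bars give the percentage of tested genes of each list that passed an adjusted p of 0.05 against Ta, higher above 0 and lower below 0, by metal. In Pb the list of other transferases has 5 higher and 1 lower of 17, while the export list has 7 higher and 5 lower of 15.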

How the data were processed

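Kidney RNA of 47 rats was analysed from raw counts per gene that the authors deposited. Per the submitters' processing notes they used STAR 2.7.2a, the mRatBN7.2 build and featureCounts of Subread 1.6.4. The annotation, strand setting and the handling of multi-mapping reads are not given in the sources used here. A further 29 lines name no gene and were dropped. Of 22525 symbols, 82.8% were found in the RefSeq table (GRCr8), with all 10 members among them. Transcript lengths were not used, so levels are not compared between genes.

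Counts were tested with edgeR 4.0.16 (R 4.3.3): filterByExpr, TMM factors and 1 quasi-likelihood fit over all groups (common dispersion 0.124), with Benjamini-Hochberg adjustment per comparison. Log CPM used a prior count of 2. The script was tested on simulated data. All 10 members are named; for each the 2 most similar profiles are named, and up to 3 called genes per list and comparison with the smallest p. The members and lists were chosen with earlier results of these data known. Alternatives were DESeq2 1.42.0, limma 3.58.1 voom with quality weights, other scaling and filters (1 CPM in 7 libraries), replicate block, covariates (cell make-up, protein size balance, 3 surrogate variables of sva 3.50.0), a fold of 1.5, a threshold of 0.1, and fits of fewer libraries. Leaving out DU replicates 5 and 6 was a choice made after seeing the data.

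Replicate numbers did not pair libraries: residuals of 115 pairs with the same number had a median correlation of 0.0116 (-0.353 to 0.360), against -0.000744 for other pairs. Chi-square tests of counts found no copies among 161 pairs within groups (at least 15.7 per degree of freedom).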

Additional observations from a re-analysis of the deposited data

Results flagged for a closer look

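A single library lay far from the others of its group for 5 of the 60 combinations of member and group looked at, by a gap test that chance meets in about 1 of 20 groups. Gstm1 reached 82.1 CPM in Al replicate 6, where the next Al library had 46.6 CPM, and 108 CPM in Ta replicate 4, where the next Ta library had 51.9 CPM. Gstm2 reached 125.005 CPM in Pb replicate 5, with the next Pb library at 81.03 CPM. Gsto1 reached 326 CPM in Pb replicate 4, which also had the highest balance of small and very large proteins of all libraries (4.25), and the next Pb library had 242 CPM. Mgst1 reached 310 CPM in DU replicate 6, with the next DU library at 172 CPM. Without DU replicate 6 or any other DU or Ta library, Mgst1 was not called in DU.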

How the results depend on the processing

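Counts of members called against Ta were unchanged by DESeq2, other scaling factors, other filters on low counts and the replicate block, which gave 0 (W), 7 (Co), 3 (Al), 7 (Pb) and 1 (DU). The shares of all genes called in these fits were 0.566% to 5.83% in W, 19.8% to 28.7% in Co and 19.3% to 29.8% in Al. In Pb they were 44.2% to 58.9% and in DU 12.9% to 16.3%. Replicate numbers do not pair these libraries, and the block moved the number of all genes called only to 317 (W), 4288 (Co), 4138 (Al), 8507 (Pb) and 2387 (DU). Leaving out each library in turn gave 0 to 0 calls in W, 7 to 7 in Co, 3 to 3 in Al, 7 to 7 in Pb, 0 to 1 in DU, 7 to 8 among the 5 metals and 24 to 31 of 100 member and metal pairs. All genes called then numbered 5 to 604 in W, 3036 to 4812 in Co, 3071 to 4435 in Al, 8081 to 8502 in Pb and 1692 to 2830 in DU. In DU the count was 0 without Ta replicates 1, 2, 3 or 8 or DU replicates 4 or 6, and without DU replicate 5 Gstp1 was called in place of Gstz1.

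In Co the count was 1 with the protein size balance as a covariate (2.83% of all genes called) and 1 with 3 surrogate variables (3.26%). It was 4 and 3 for replicate numbers 1 to 4 and 5 to 8 (5.36% and 22%), and 3 with a fold of at least 1.5. Without Ta replicates 4 and 6 it was 5 (17.6%), Gstt1 and Gsta4 having lost their calls (adjusted p = 0.071 and 0.055). In Al it was 5 with limma voom (36% of all genes called), 0 with cell make-up (11%) and 0 with the protein size balance (2.55%). For replicate numbers 1 to 4 and 5 to 8 it was 5 and 0 (11% and 13.9%). Without Ta replicates 4 and 6 it was 1 (19.8%), and without DU replicates 5 and 6 it was 5 (28.1%). A fit of Al and Ta alone gave 5 (32.1%), and a fold of at least 1.5 gave 1. In Pb it was 2 with the protein size balance (6.74% of all genes called) and 3 for replicate numbers 5 to 8 (28%). In DU it was 0 with the protein size balance (2.52% of all genes called) and 2 with 3 surrogate variables (10.5%). For replicate numbers 1 to 4 and 5 to 8 it was 2 and 0 (9.84% and 5.16%). It was 0 without DU replicates 5 and 6 (11.3%), in a fit of DU and Ta alone (12%), or with a fold of at least 1.5. In W it was 4 without DU replicates 5 and 6 (Gstt2, Gsta4, Gstk1 and Mgst1), where 7.03% of all genes were called, against 1.78% with them. A fit of W and Ta alone called 0 members and 1.92% of all genes. Member and metal pairs called were 17 with the protein size balance and 13 with a fold of at least 1.5, against 28. The share of all genes called per pair in these settings is not given here.

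Of 750 log2 fold changes of members under settings other than leaving out a library, 684 kept their side of the threshold, 47 lost a call, 17 gained one and 2 reversed. In the main fit 7 members were called in Co, 3 in Al, 7 in Pb and 1 in DU. Only these, under 15 settings each, could lose a call, so the 47 are not to be read against all 750. The reversed values were Gstz1 in Pb with 3 surrogate variables (0.29, adjusted p = 0.038) and Mgst1 in Pb with the protein size balance (-0.14). The cause of these shifts was not tested. The number of all genes called with the protein size balance was 6 (W), 449 (Co), 404 (Al), 1070 (Pb) and 400 (DU). No fit at a lower depth was run.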
